A study of Saccharomyces cerevisiae with 4 samples.

Results

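The genes of lower glycolysis in budding yeast (Saccharomyces cerevisiae) are described here in RNA from a strain with an altered RNA polymerase II, labelled T4V, and from its wild type, labelled WT. The members are the genes of the enzymes from triose phosphate isomerase to pyruvate kinase, picked by symbol: TPI1, TDH1, TDH2, TDH3, PGK1, GPM1, ENO1, ENO2, CDC19 and PYK2. All 10 were found among the 7126 genes of the deposited table. T4V stands for threonine replaced by valine at position 4 of the repeats that form the C-terminal domain of the polymerase's largest subunit, and the series asks how this residue bears on transcription and on chromatin that holds the histone variant Htz1. Poly(A) RNA was sequenced from 2 T4V and 2 WT libraries. The strain background, the medium, the growth phase and any other alleles are not stated in the labels, and neither is whether the libraries of a genotype came from separate cultures, so p-values measure only the spread between these libraries.

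Lower glycolysis turns triose phosphates into pyruvate and returns ATP and NADH on the way. Budding yeast carries more than 1 gene for several of its steps, and the enzymes made from such a set of genes are called isoenzymes. In cells growing on glucose, TDH3, ENO2 and CDC19 are known as the main genes of their steps, while TDH1 is known for its use as growth slows, ENO1 for depending less on glucose, and PYK2 for being held down by glucose.

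TDH1 and ENO1, the minor genes of their steps, rose in T4V. TDH1 was 2.24-fold and ENO1 1.54-fold as high in T4V as in WT, while ENO2, the main enolase gene, stood at 0.827 of its WT level. TDH1 and ENO1 stayed higher under all 15 alternative settings. ENO2 was not lower after quantile normalization, at an uncalled log2 fold change of 0.12. Limma, the main test, did not call the other 7, and alternative settings called TDH2, TDH3 or PGK1 lower. The share of ENO1 among enolase transcripts was 10.7% ± 0.752 in T4V and 6.03% ± 0.217 in WT, and that of TDH1 among the TDH transcripts was 2.22% ± 0.127 in T4V and 0.890% ± 0.0823 in WT (SD, n = 2 each). In bulk RNA, a difference in every cell and a difference in the share of cells that express a gene cannot be told apart.

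Levels are in RPKM, in which the authors divided reads by gene length and by library size. This gives genes and libraries a common scale, but some differences between genotypes changed direction under other scalings, as the closing section shows. Levels of single TDH and enolase genes are further limited by reads that match several genes, as described below. Library sizes, recovered from the steps of the low RPKM values, were 3353500 and 4260000 reads in T4V and 4067000 and 3653500 reads in WT. The 10 genes held 5.49% of the reads in each T4V library, against 6.04% and 5.91% in the WT libraries. RPO21, the gene of the altered subunit, had 50.8 and 54.1 RPKM in T4V and 51.6 and 53.4 RPKM in WT. RPKM does not show the altered residue, so only the label tells which genotype a library has. Correlations of log2(RPKM + 1) between libraries ran from 0.966 to 0.985 across genes, which are not independent replicates.

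The TDH genes, and likewise the enolase genes, are close copies in part of their length, which limits how well their reads can be told apart. The stretches printed here are the 100 coding bases in which each family differs most. They are given 5′ to 3′ on the coding strand, from the RefSeq genome of the R64 assembly, which the sacCer3 build named in the submitters' processing notes is made from. Capitals mark the positions at which the genes of a family differ.
TDH1: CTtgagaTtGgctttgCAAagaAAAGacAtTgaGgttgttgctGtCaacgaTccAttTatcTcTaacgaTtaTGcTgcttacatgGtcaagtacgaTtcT
TDH2: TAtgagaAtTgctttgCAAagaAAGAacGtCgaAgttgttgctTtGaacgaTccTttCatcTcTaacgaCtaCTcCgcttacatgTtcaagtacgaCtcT
TDH3: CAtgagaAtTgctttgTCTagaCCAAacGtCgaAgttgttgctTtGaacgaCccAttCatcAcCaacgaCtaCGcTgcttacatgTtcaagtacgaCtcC
ENO1: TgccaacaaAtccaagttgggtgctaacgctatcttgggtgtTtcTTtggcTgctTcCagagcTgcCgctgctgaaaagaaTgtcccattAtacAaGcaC
ENO2: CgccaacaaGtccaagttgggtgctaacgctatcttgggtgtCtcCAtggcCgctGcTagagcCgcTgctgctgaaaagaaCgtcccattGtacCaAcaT
The TDH stretch covers coding bases 48 to 147 and lies at chrX:338318-338417 on the plus strand for TDH1, at chrX:454535-454634 on the minus strand for TDH2 and at chrVII:883664-883763 on the minus strand for TDH3. The enolase stretch covers coding bases 300 to 399, at chrVII:1001226-1001325 for ENO1 and chrVIII:451626-451725 for ENO2, both on the plus strand.

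The TDH stretch has 28 positions at which at least 1 of the 3 genes differs, of 125 over the 999 coding bases. The enolase stretch has 15 of the 68 positions that differ over 1314 coding bases. Elsewhere the copies are harder to tell apart, since some windows of 100 bases hold 1 variable position in the TDH genes and 0 in the enolase genes. TDH2 and TDH3 are 95.8% identical over their coding bases, TDH1 is 90.2% identical to TDH2 and 88.9% to TDH3, and ENO1 and ENO2 are 94.8% identical. CDC19 and PYK2 are 67.9% identical over 1503 aligned bases, and their longest identical run is 14 bases.

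The labels give inserts of about 100 bases, and the read length was not given in the sources used here. Of the 50-base windows of TDH1, 15.7% also occur in TDH2 or TDH3, and the share is 31.3% for TDH2 and 24.4% for TDH3. For ENO1 and ENO2 it is 23.6% each, and for CDC19 and PYK2 it is 0%. At 100 bases the shares fall to 4.56% for TDH1 and 2.72% for each enolase gene. The treatment of reads that match more than 1 gene is unknown. The numbered copies CUP1-1 and CUP1-2, and ASP3-1 to ASP3-4, each averaged 0 RPKM over the 4 libraries. Whether shared reads were left out, or these copies gave no transcripts, was not tested. If shared reads were left out, TDH2 and TDH3 would be understated by more than TDH1, and ENO1 and ENO2 alike. The levels, sums and ranks built on these genes, and the TDH shares, would then shift as well. Levels of single TDH and enolase genes are therefore uncertain in part, and the part of shared reads in their differences was not tested. CDC19 and PYK2 share no such window, and no coding sequence of the 10 genes overlaps another annotated coding sequence of the R64 assembly. Of the 7126 genes of the deposited table, 6048 had a length in R64, and overlap with the rest was not checked.

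**Figure D1:**
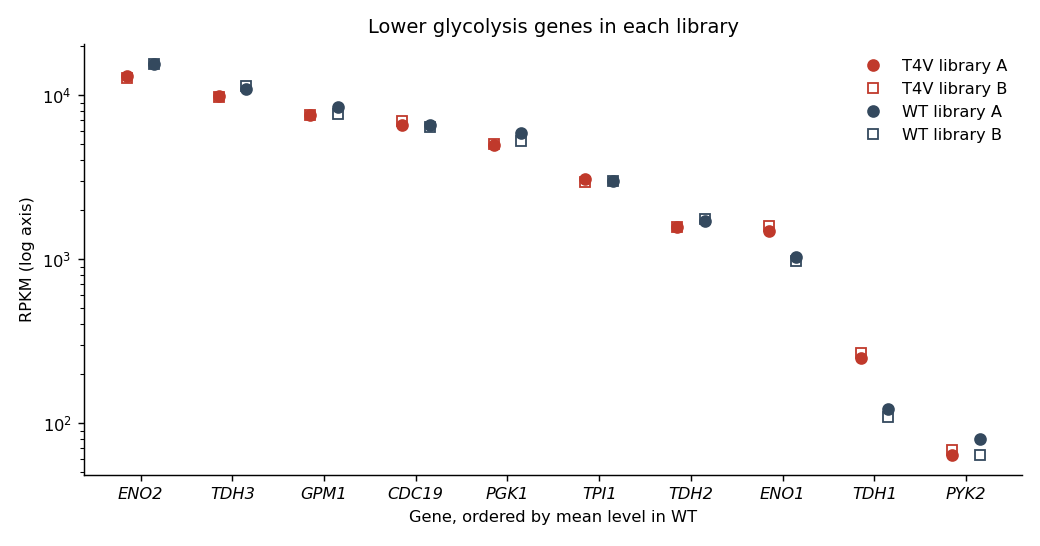
RPKM on a log axis for each of the 10 genes, ordered by their mean level in WT. T4V libraries are on the left of each pair and WT libraries on the right, with library A filled and library B open. The order of the genes is the same in both genotypes, TDH1 and ENO1 are the genes whose T4V points lie clearly above their WT points, and the mean levels in T4V span 12853 RPKM for ENO2 to 66.2 RPKM for PYK2.

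The levels of the 10 genes spanned a wide range and kept the same order in both genotypes. The order ran ENO2, TDH3, GPM1, CDC19, PGK1, TPI1, TDH2, ENO1, TDH1 and PYK2. ENO2, the most abundant of them, ranked 4 among all genes in T4V and in WT by mean RPKM. Neighbours in this order did not overlap between libraries of 1 genotype, with a single exception: ENO1 and TDH2 overlapped in T4V. ENO1 averaged 1538 RPKM there and TDH2 averaged 1573 RPKM. TDH1 ranked 692 among all genes in T4V and 1354 in WT, and PYK2 ranked 2248 in T4V and 2003 in WT.

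Differences were tested with limma on log2(RPKM + 1) across 5935 genes with at least 1 RPKM in at least 2 libraries, with a threshold of 0.05 on the Benjamini-Hochberg adjusted p. All 10 members passed the filter, the scarcest of them, PYK2, with 63.7 RPKM in its lowest library. Of the 10, 3 were called, against 17.9% of all genes tested. TDH1 and ENO1 were called higher, as were 11.7% of all genes, and ENO2 was called lower, as were 6.25%. The median log2 fold change of the 10, T4V minus WT, was -0.10, and that of all genes tested was 0.07. The RPKM values of the genotypes did not overlap in 8 of the 10, and in 62.0% of all genes tested. T4V was higher without overlap in 3 of the 10 and in 38.6% of all genes tested, and lower without overlap in 5 of the 10 and in 23.4% of all genes tested. Voom, a fit on reads recovered from the RPKM, called 5 of the 10, against 28.2% of its genes, with 2 higher against 17.9% and 3 lower against 10.3%.

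**Figure D2:**
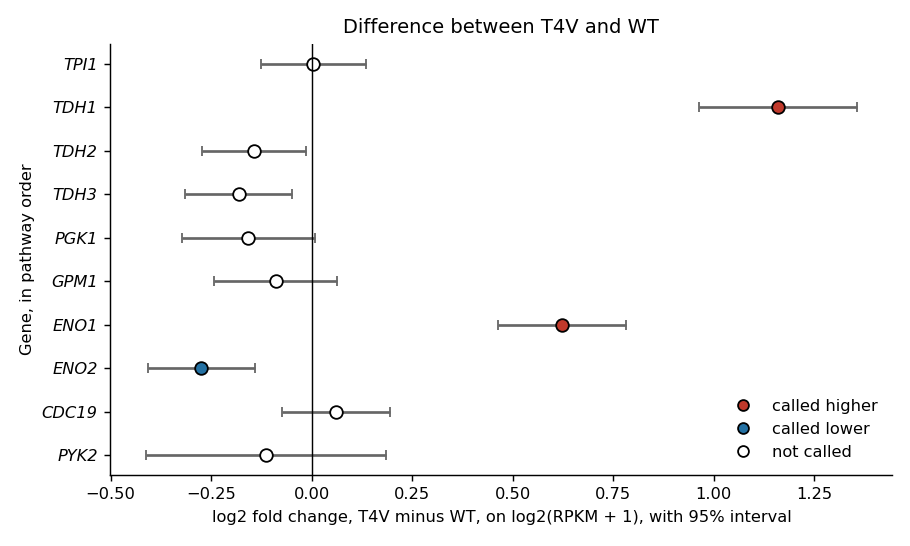
Log2 fold change of each gene, T4V minus WT, on the log2(RPKM + 1) scale, with its 95% interval from limma, in pathway order from top to bottom. The points of TDH1 (1.16) and ENO1 (0.62) lie to the right of 0 and that of ENO2 (-0.27) to the left, while the open points of the other genes lie between -0.18 and 0.06.

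TPI1 encodes triose phosphate isomerase, which interconverts the pair of triose phosphates, and lies at chrIV:555726-556472 on the minus strand. It had 3067 and 2962 RPKM in T4V and 3011 and 2999 RPKM in WT. The libraries of the genotypes overlapped, and the 95% interval of the log2 fold change ran from -0.13 to 0.13 around 0.00.

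The TDH genes encode glyceraldehyde-3-phosphate dehydrogenase, the step that makes NADH. TDH1 (YJL052W) lies at chrX:338271-339269 on the plus strand, and its transcript is the scarcest of the 3. TDH1 had 249 and 269 RPKM in T4V, against 121 and 110 RPKM in WT, from 835 and 1143 reads in T4V and 492 and 400 reads in WT. Both T4V libraries stood above both WT libraries, by a log2 fold change of 1.16 ± 0.08 (SE; limma adjusted p = 0.000615).

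TDH2 (YJR009C), at chrX:453683-454681 on the minus strand, had 1571 and 1575 RPKM in T4V and 1715 and 1763 RPKM in WT. TDH3 (YGR192C), the main gene, at chrVII:882812-883810 on the minus strand, had 9848 and 9760 RPKM in T4V and 10933 and 11299 RPKM in WT. For both genes the T4V libraries were below the WT libraries without overlap, but neither passed the test. The log2 fold change of TDH2 was -0.14 (limma adjusted p = 0.117) and that of TDH3 was -0.18 (limma adjusted p = 0.0686). TDH3 was called lower by voom on the recovered reads (adjusted p = 0.00241) and under other settings, as listed in the closing section, while after quantile normalization its log2 fold change was 0.00 with an adjusted p of 1 by limma.

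PGK1 encodes phosphoglycerate kinase, the first ATP-forming step of the pathway, and lies at chrIII:137746-138996 on the plus strand. It had 4945 and 4998 RPKM in T4V and 5868 and 5237 RPKM in WT, a log2 fold change of -0.16 with an interval of -0.32 to 0.01. GPM1 encodes phosphoglycerate mutase, which moves the phosphate group along the molecule, and lies at chrXI:163642-164385 on the minus strand. It had 7608 and 7565 RPKM in T4V and 8440 and 7717 RPKM in WT, a log2 fold change of -0.09 with an interval of -0.24 to 0.06. In both genes the T4V libraries lay below the WT libraries and close together, while the WT libraries differed from each other by more than the higher T4V library differed from the lower WT library. Limma called neither PGK1 (adjusted p = 0.168) nor GPM1 (adjusted p = 0.377). PGK1 was called lower by voom on the recovered reads (adjusted p = 0.0197).

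The enolase genes encode the enzyme that forms phosphoenolpyruvate. ENO1 (YGR254W) lies at chrVII:1000927-1002240 on the plus strand. ENO1 had 1474 and 1601 RPKM in T4V and 1026 and 969 RPKM in WT, both T4V libraries above both WT libraries. Its log2 fold change was 0.62 ± 0.07 (SE; limma adjusted p = 0.00232). ENO2 (YHR174W), at chrVIII:451327-452640 on the plus strand, had 13036 and 12670 RPKM in T4V and 15558 and 15520 RPKM in WT. The T4V libraries lay below the WT libraries, and the log2 fold change was -0.27 ± 0.06 (SE; limma adjusted p = 0.0195). The direction of ENO2 depends on the scaling: it stood at 0.12, with a limma adjusted p of 0.354, after quantile normalization, which sets each library to the same distribution and so leaves the most abundant genes only their ranks.

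When T4V library A was left out, the limma adjusted p was 0.0602 for TDH1, 0.0701 for ENO1 and 0.151 for ENO2, with log2 fold changes of 1.21, 0.68 and -0.29. When T4V library B was left out, it was 0.0624 for TDH1, 0.0774 for ENO1 and 0.172 for ENO2, with log2 fold changes of 1.11, 0.56 and -0.25. Across all genes limma called 16 and 27 genes in these fits, against 1063 with all libraries.

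Pyruvate kinase makes pyruvate and ATP, and neither of its genes was called. CDC19 (YAL038W), the main gene at chrI:71786-73288 on the plus strand, had 6609 and 6900 RPKM in T4V and 6541 and 6417 RPKM in WT. The T4V libraries were above the WT libraries, by a log2 fold change of 0.06 with an interval of -0.07 to 0.19. PYK2 (YOR347C), at chrXV:984942-986462 on the minus strand, had 63.7 and 68.7 RPKM in T4V and 80.5 and 63.7 RPKM in WT. Its libraries overlapped and its interval ran from -0.41 to 0.19, the widest of the 10. Limma called neither CDC19 (adjusted p = 0.503) nor PYK2 (adjusted p = 0.574). PYK2 is also a minor isoenzyme gene, and its value in T4V was 0.918 of that in WT.

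The isoenzyme shares show how each step was divided between its genes. Shares are taken within a library, so a factor that multiplies a whole library cannot move them. The genes of each of the TDH and enolase families have the same coding length, so the share of RPKM and the share of reads are the same quantity there up to rounding. Confidence intervals on shares of reads are 95% Wilson intervals, which cover counting error only and take each read as independent. PCR copies were not marked by molecular identifiers, so these intervals can be too narrow.

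TDH1 made up 2.14% and 2.31% of the TDH transcripts in T4V, against 0.948% and 0.832% in WT. Counting error gave 2.00% to 2.28% and 2.19% to 2.45% for the T4V libraries, and 0.868% to 1.04% and 0.755% to 0.917% for the WT libraries. The intervals of the T4V libraries did not reach those of the WT libraries. TDH3 made up 84.4% and 84.1% in T4V and 85.6% and 85.8% in WT, a difference of -1.45 percentage points, T4V minus WT, with no overlap between the genotypes. TDH2 made up 13.5% and 13.6% in T4V and 13.4% in each WT library. The difference for TDH2, 0.11 percentage points, was within the counting intervals. The ratio of TDH3 to TDH2 was 6.23 ± 0.05 in T4V and 6.39 ± 0.03 in WT, and the ratio of TDH3 to TDH1 was 37.9 ± 2.25 in T4V and 96.7 ± 9.07 in WT (SD, n = 2 each).

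ENO1 made up 10.2% and 11.2% of enolase transcripts in T4V, against 6.19% and 5.88% in WT. Counting error gave 9.93% to 10.4% and 11.0% to 11.4% for the T4V libraries and 6.03% to 6.35% and 5.72% to 6.05% for the WT libraries. The intervals of the T4V libraries did not overlap each other, so these libraries differed by more than the counting error of independent reads. Both stood well above WT. ENO2 was 8.84 and 7.91 times as abundant as ENO1 in T4V and 15.2 and 16.0 times in WT.

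PYK2 made up 0.954% and 0.985% of pyruvate kinase transcripts in T4V and 1.22% and 0.983% in WT, and the genotypes overlapped. For each of the TDH1, TDH2, TDH3 and ENO1 shares an exact permutation test over the 4 libraries (2-sided) gave p = 0.333, the smallest that 2 against 2 libraries allow, so it does not set these shares apart. For the PYK2 share it gave an exact p of 0.667.

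**Figure D3:**
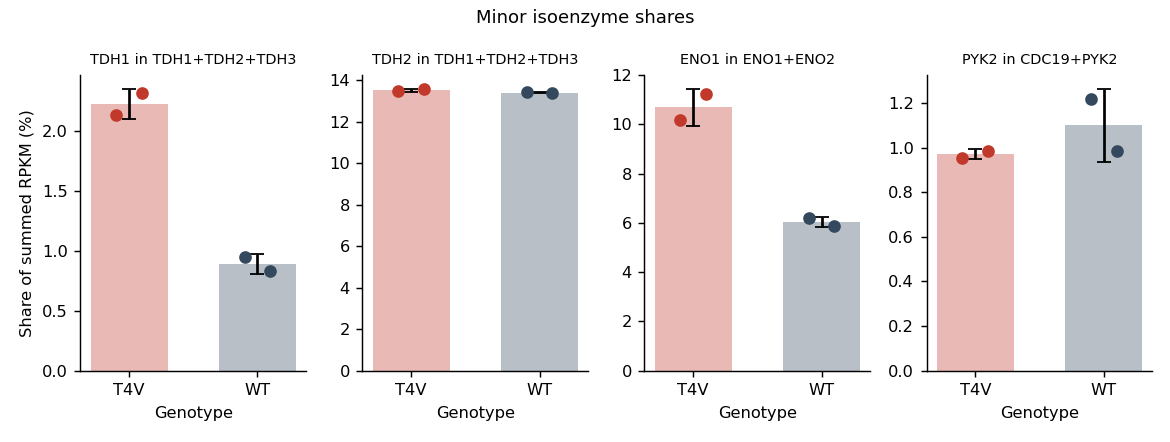
Share of TDH1, TDH2, ENO1 and PYK2 in the summed RPKM of their own step, in percent, with T4V on the left and WT on the right of each panel. Bars are means, error bars SD over 2 libraries and points single libraries, and each panel has its own axis from 0. TDH1 (2.22% in T4V, 0.890% in WT) and ENO1 (10.7% in T4V, 6.03% in WT) are higher in T4V, while TDH2 and PYK2 are close between genotypes.

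Sums of each step put the minor and main genes on 1 scale. The enolase sum was 14391 ± 169 RPKM in T4V and 16536 ± 66.7 RPKM in WT, and the TDH sum was 11636 ± 46.1 RPKM in T4V and 12970 ± 284 RPKM in WT (SD, n = 2 each). The ENO1 mean was 540.1 RPKM higher in T4V and the ENO2 mean fell by 2686 RPKM, so the rise of ENO1 came to 20.1% of the fall of ENO2. The TDH1 mean was 144 RPKM higher in T4V, which came to 9.71% of the difference of TDH2 and TDH3 together. Both percentages hold for the deposited scale, since ENO2 and TDH3 were not lower after quantile normalization. The summed pyruvate kinase level was 6821 ± 209 RPKM in T4V and 6551 ± 99.3 RPKM in WT (SD, n = 2 each).

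Over all 10 genes the sum was 48472 and 48368 RPKM in T4V and 53293 and 52094 RPKM in WT. The T4V libraries lay below the WT libraries, at 0.919 of the WT mean. An exact permutation test gave p = 0.333, the smallest the design allows. The direction of this sum turned under quantile normalization, with a log2 ratio of 0.06 against -0.12 on the deposited values.

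**Figure D4:**
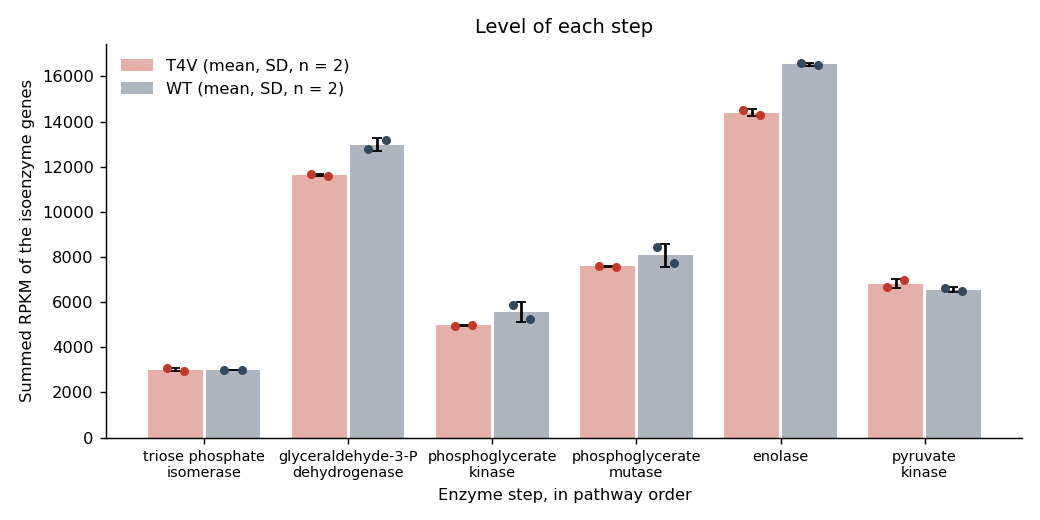
Summed RPKM of the genes of each enzyme step, in pathway order, with T4V left of WT. Bars are means, error bars SD over 2 libraries and points single libraries. The T4V bars are lower than the WT bars from the dehydrogenase to the enolase step (14391 RPKM in T4V and 16536 RPKM in WT for enolase), and higher for pyruvate kinase.

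The genes around lower glycolysis were looked up in lists of fixed membership. Limma called 11.7% of all genes tested higher and 6.25% lower, and voom called 17.9% higher and 10.3% lower. Of 7 upper glycolysis genes limma called 2 higher and 0 lower, and voom called 2 higher and 1 lower, FBA1. Both tests called HXK1, a hexokinase gene, higher at 0.82 and GLK1, the glucokinase gene, higher at 0.41 on the log2 scale of limma. FBA1, the aldolase gene that feeds TPI1 and TDH, was the most abundant of all and had 28608 and 28251 RPKM in T4V and 32229 and 32136 RPKM in WT (limma adjusted p = 0.0756, voom adjusted p = 0.000626). Of 8 ethanol formation genes, 7 were tested, of which limma called ADH4 higher at 1.13, and ADH1 and ADH3 lower at -1.35 and -0.58. Voom called 1 higher and 3 lower there, adding PDC1 (adjusted p = 0.0166). Of 7 genes of gluconeogenesis and the glyoxylate cycle limma called MDH2 lower, at -0.47, and none higher, and voom called 1 higher, PCK1 (adjusted p = 0.0187), and 1 lower. ADH1 and ADH4 were called under all 15 alternatives of the limma fit. HXK1, GLK1 and ADH3 lost their calls without T4V library A or B, ADH3 also without WT library A, and MDH2 without any 1 library (limma adjusted p = 0.0778 to 0.206) or without a filter (0.0554). Without the variance trend limma called none of these 4 (adjusted p = 0.0643 to 0.133).

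Of the 4 listed regulators of glycolytic genes, limma called GCR2 higher and none lower, against 11.7% and 6.25% of all genes tested. Voom called 3 higher, against 17.9% of its genes (adjusted p = 0.00559 for GCR2, 0.0182 for TYE7 and 0.0364 for GCR1). It called RAP1 lower (adjusted p = 0.00929), against 10.3% of its genes. Voom used the recovered library totals without another scaling, and 63.4% of all its calls were higher in T4V. GCR2, which encodes a coactivator of glycolytic genes, had 127 and 120 RPKM in T4V and 103 and 97.5 RPKM in WT, 0.30 higher on the log2 scale (limma adjusted p = 0.0399). That call was lost under each of the 3 other scalings (limma adjusted p = 0.0619 to 0.0880), without any 1 library (0.0720 to 0.225), without the variance trend (0.112) and with a replicate block by library letter (0.0504). GCR1, the DNA-binding partner, had 45.1 and 46.5 RPKM in T4V and 39.2 and 36.8 RPKM in WT (limma adjusted p = 0.114). TYE7, another activator of glycolytic genes, had 142 and 157 RPKM in T4V and 116 and 128 RPKM in WT (limma adjusted p = 0.0678). RAP1, a general factor that also binds glycolytic promoters, had 55.3 and 54.5 RPKM in T4V and 67.6 and 67.0 RPKM in WT (limma adjusted p = 0.0591).

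The upstream regions of the genes that rose are shown because Gcr1 and the stress factors Msn2 and Msn4 are known to act through short motifs there. The motifs searched were CTTCC, the core bound by Gcr1, AGGGG, the stress response element, and TATAAA, in the 600 bases before each start codon and on both strands. Capitals mark CTTCC and AGGGG or their reverse complements.
TDH1: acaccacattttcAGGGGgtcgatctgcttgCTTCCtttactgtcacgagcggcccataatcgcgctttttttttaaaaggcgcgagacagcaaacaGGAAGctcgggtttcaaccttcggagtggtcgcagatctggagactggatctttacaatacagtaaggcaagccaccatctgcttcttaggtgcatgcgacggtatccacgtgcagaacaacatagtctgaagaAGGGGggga
ENO1: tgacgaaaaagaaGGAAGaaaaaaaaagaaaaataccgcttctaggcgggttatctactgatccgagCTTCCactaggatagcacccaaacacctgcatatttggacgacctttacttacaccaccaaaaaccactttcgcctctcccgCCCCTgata
The TDH1 sequence runs from 460 to 221 bases before the start codon, at chrX:337811-338050, and the ENO1 sequence from 550 to 393 bases before it, at chrVII:1000377-1000534, both on the plus strand of R64. The TDH1 window overlaps YJL052C-A, annotated on the other strand at chrX:337884-338003.

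AGGGG matched in the windows of 7 of the 10 genes, and in 39.7% of 6008 windows of nuclear coding genes. TDH1 held 2 matches and ENO1 held 1, while TDH3, which limma did not call, held 3. TDH2, GPM1 and ENO2 held none. CTTCC matched in 9 of the 10 genes, all but TDH3, and in 72.9% of all windows. TATAAA matched in 9 of the 10, all but GPM1, and in 65.1% of all windows. Among the 50 matches in the 10 genes, 1 pair overlapped. A match is a description of letters and not a binding site.

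Codon use set PYK2 apart from the other members. The codon adaptation index, which is 1 for a gene that uses only the codons most frequent in the 137 cytosolic ribosomal protein genes, had a median of 0.196 over 5994 coding genes. TDH1 had an index of 0.871 and ENO1 one of 0.887, close to 0.922 for TDH3 and 0.897 for ENO2. TDH1 was thus higher than 99.8% of coding genes in this index, although its mean level was 259 RPKM in T4V and 115 RPKM in WT. PYK2 had an index of 0.174, and 28.9% of coding genes had a lower one. CDC19, the other pyruvate kinase gene, had 0.897.

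**Figure D5:**
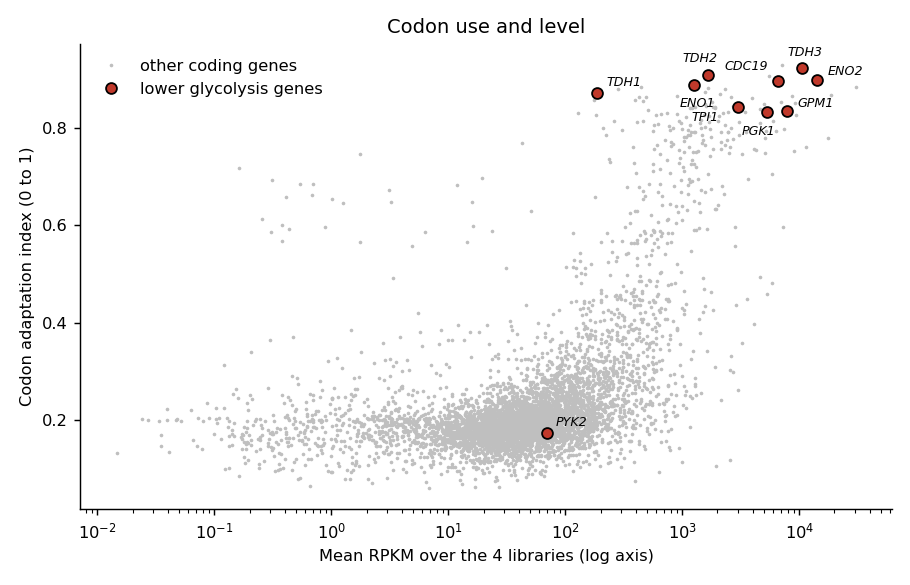
Codon adaptation index against mean RPKM over the 4 libraries, on a log axis, with the 10 genes in red and other coding genes in grey. TDH1 and ENO1 lie beside the abundant members in codon use (0.871 and 0.887) but at lower levels, and PYK2 (0.174) lies among most other genes.

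The genes whose pattern over the 4 libraries was most like that of a minor isoenzyme gene were named by the Euclidean distance between centred log2(RPKM + 1) values, among genes with a mean of at least 10 RPKM. For TDH1 they were UIP4 at a distance of 0.10, HIS4, of histidine synthesis, at 0.11 and NQM1, a transaldolase gene, at 0.14. HIS4, for example, had 316 and 324 RPKM in T4V and 149 and 147 RPKM in WT. For ENO1 they were HSM3, VIP1 and GCV2, each at 0.05. GCV2, of glycine cleavage, had 93.7 and 103 RPKM in T4V and 63.7 and 63.2 RPKM in WT. For PYK2 they were UBC9, YCK1 and PTC7, at 0.03, 0.06 and 0.06. A likeness over 4 libraries says only that these values lie close.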

How the data were processed

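Strand-preserving libraries of fragmented poly(A) RNA were sequenced on a Genome Analyzer IIx by Illumina, per the labels' protocols. Reads were placed with Bowtie2 on sacCer3, per the submitters' processing notes. No source used here gives the counting program, its annotation or its strand setting. RPKM values, reads scaled by gene length and library size, were deposited by the authors for 7126 genes with 1 column per library. Column names gave the genotype and a letter but no replicate number, so libraries are called A and B within a genotype.

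Low RPKM values are whole multiples of the value of 1 read. With R64 gene lengths, known for 6048 genes, and a library size searched for, 99.3% to 99.5% of values under 15 reads came out within 0.1 of a whole number. A count of 0 allows up to 3 reads, or 0.704 to 0.895 RPKM for a gene of 1 kb. The design planned for RPKM was kept: limma 3.58.1 (R 4.3.3) on log2(RPKM + 1) with an abundance trend, 2-sided, without further scaling, for genes with at least 1 RPKM in at least 2 libraries. Fold changes on this scale understate the change of low genes. Voom on recovered reads, a model for counts, was an alternative and called 1573 genes. Python 3.11.15 with pandas 2.3.3, numpy 2.4.6, scipy 1.17.1, biopython 1.88 and matplotlib 3.10.9 did the rest. The fit was tested on simulated data with the same spread for every gene and with larger changes than those of ENO1 and ENO2. Changes as small as theirs were therefore not tested. Other alternatives changed the pseudocount (0.1 or 5), the filter (none, or 10 RPKM), the scaling and the variance model, or left out each library.

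The members, gene lists, motifs and the rule for named genes were chosen with earlier results of these data known. The rule named all 10 members, called or countable genes of 4 pathway lists, RPO21, and the 3 genes closest in pattern to each of TDH1, ENO1 and PYK2. Examples among other genes, such as FBA1, were picked after their values were seen.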

Additional observations from a re-analysis of the deposited data

How the results depend on the processing

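TDH1 and ENO1 stayed higher in T4V under all 15 alternatives, at log2 fold changes of 1.09 to 1.23 and 0.56 to 0.68, and each lost its call only when a T4V library was left out (highest limma adjusted p 0.0624 and 0.0774). Leaving out 1 library gave 16 to 746 called genes, and 0 to 3 of the 10 members. Limma without trend called 399 genes, and there ENO2 lost its call (adjusted p = 0.114). Median-of-ratios scaling called 5 members, against 1014 of 5936 genes tested, adding TDH2 (limma adjusted p = 0.0438) and TDH3 (0.0282). Voom called 5, against 28.2% of its genes, adding TDH3 and PGK1. TDH3 was also called with the robust variance model (0.0453) and with a library total that left out the 20 most abundant genes and those of ribosomal proteins (0.0399). Of all called genes, 65.1% were higher in T4V (692 higher, 371 lower), against 50.4% after median-of-ratios scaling (511 and 503), 50.3% after quantile normalization (449 and 443) and 56.0% with that total (560 and 440).

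Under median-of-ratios scaling TPI1 turned to -0.060 and CDC19 to -0.0045, and with that total TPI1 turned to -0.034. Quantile normalization turned PGK1 to 0.074, GPM1 to 0.012 and ENO2 to 0.12, and left TDH3 at 0.00 (adjusted p = 1). With 1 library left out, TPI1 ran from -0.021 (without T4V library A) to 0.030 and PYK2 from -0.28 to 0.054 (without WT library A). None of these reversed values was called. The summed log2 ratio was -0.19 with median-of-ratios scaling, -0.16 with that total and 0.060 after quantile normalization. Quantile normalization also set the share differences to 1.09 percentage points for TDH1, -0.87 for TDH2, -0.21 for TDH3 and 2.68 for ENO1, since it rescales genes of different rank unequally.

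No paired analysis by replicate number was possible because the columns carry none. A replicate block by the letter A or B, added after the data were seen, called 1137 of 5935 genes and the same 3 members. The block ended the call of the regulator gene GCR2 (limma adjusted p = 0.0504). Deviations of same-lettered libraries correlated at -0.01, so libraries of the same letter did not deviate together.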
